A study of Mus musculus with 6 samples.

Results

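The transcripts described here are those of 45 mouse genes of the NRF2 pathway and of the enzymes that remove peroxides, superoxide and quinones, read in MIN6 cells, a mouse insulinoma line used as a model of the pancreatic beta cell. The genes were chosen by name for their role, with earlier results of these data known, and all 45 were among the 22298 genes of the table. They comprise the regulators Nfe2l2, Nfe2l1 and Keap1 and 10 families of enzymes and binding proteins. Whole-transcriptome RNA sequencing was done on 6 samples, 3 controls and 3 of chronic epinephrine, and the question was how prolonged exposure to this stress hormone alters gene expression in beta cells. Chronic exposure in this study meant 100 nM epinephrine for 3 days, followed in its scheme by 2 days of withdrawal. The day of RNA harvest is not stated in the methods, so the values may come from before or after withdrawal. All cells, controls included, grew in RPMI medium with serum and 50 uM beta-mercaptoethanol, a thiol reductant that itself acts on the redox state of cultured cells, and were between passages 32 and 40. The model is 1 tumour-derived line in culture, and the 3 samples of a group are described by the study's general statement on replicates as independent and biological, while their labels do not describe separate cultures. The tests measure the spread between these samples.

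NRF2, the protein of Nfe2l2, is a transcription factor that is bound by KEAP1 and handed to the proteasome in unstressed cells. When oxidants or electrophiles modify cysteines of KEAP1, NRF2 escapes degradation, pairs with small MAF proteins and binds antioxidant response elements near genes of glutathione synthesis, the thioredoxin system, quinone reduction, heme breakdown and NADPH supply. Since this control acts on the protein, the Nfe2l2 transcript is not a measure of NRF2 activity. Pancreatic beta cells are known for low expression of catalase and of the main glutathione peroxidase compared with liver, and depend on peroxiredoxins and thioredoxin to remove hydrogen peroxide.

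Total counts ran from 15017065 to 17457583 in the controls and from 15256957 to 18127171 after epinephrine. Levels of a gene between samples are given as normalized CPM (counts scaled to library size), and 3 counts, the limit used for a gene not detected, correspond to 0.168 to 0.198 CPM. The FDR is the Benjamini-Hochberg adjusted p of edgeR's quasi-likelihood test over all 12747 genes that passed the filter on low counts, and a gene is called at an FDR under 0.05. Beta-cell markers were high in every library, with a summed level of 51330 to 68410 CPM in the controls and 61780 to 63800 CPM after epinephrine, led by Ins2, Iapp and Chga. Of the 12 markers 9 were below their control level after epinephrine, while 49.5% of all genes were above theirs. Ins1 (log2FC -0.50, FDR = 0.0152) and Slc2a2 (-0.76, FDR = 0.00434) were called lower, beside 0.612% of all genes. Libraries also differed in genes of other cell types. Hepatocyte markers summed to 61.6, 168 and 364 CPM in controls 1, 2 and 3 against 50.8 to 57.1 CPM after epinephrine, and skeletal muscle markers reached 119.8 and 84.0 CPM in epinephrine samples 1 and 2 against 1.65 to 3.94 CPM in the others. Control 1 stood apart from all other libraries on the first principal component of the log2 CPM values, and values without it are given beside many of the members. In the fit without control 1, 21.6% of all genes were called, beside 2.63% with all 6 samples. No member other than Hmox1 and Gpx2 was called when any other library was left out instead.

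Of the 45 genes, 42 passed the filter and were tested. Hmox1 and Gpx2 rose after epinephrine, 1.97-fold and 2.01-fold over their control level, and no member fell at this threshold. Across all genes tested, 2.02% were called higher and 0.612% lower, the background for the 2 of 42 members. Both lay close to a 2-fold change, which Gpx2 just passed. Of all genes tested, 0.722% were both called and changed at least 2-fold, in either direction. Gpx2 just missed 2-fold with DESeq2, its size factors (log2FC 0.9987), library size only (0.98) and limma (0.94 and 0.997). It was also under 2-fold at 0.85 without control 1 and 0.97 without epinephrine sample 1. Hmox1 passed 2-fold in those last fits, at 1.11 without control 1 and 1.02 without epinephrine sample 1. DESeq2's Wald test called 8 of the 45 members (5.09% of all genes) and edgeR's exact test 6 of 42 (6.54%), 4 of them higher in each case. The members split almost evenly, with 22 of the 42 above their control level and 20 below (Gclc and Gsr, close to 0, change sides with another scaling), against 49.5% of all genes above. The median log2 fold change (log2FC, epinephrine over control) of the members was 0.01, beside -0.00 for all genes. In 18 of the 42 tested members the 3 control and the 3 epinephrine values did not overlap, 11 with the epinephrine samples higher and 7 with them lower, a share of 42.9% beside 27.3% of all genes tested. For each of these 18 members the exact two-sided permutation test over samples gave p = 0.1, the smallest that 3 samples against 3 allow. At an unadjusted p under 0.05, edgeR's test listed 14 of the 42 members, beside 17.1% of all genes. In bulk samples such as these, fewer cells carrying a transcript and less transcript per cell cannot be told apart.

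**Figure D1:**
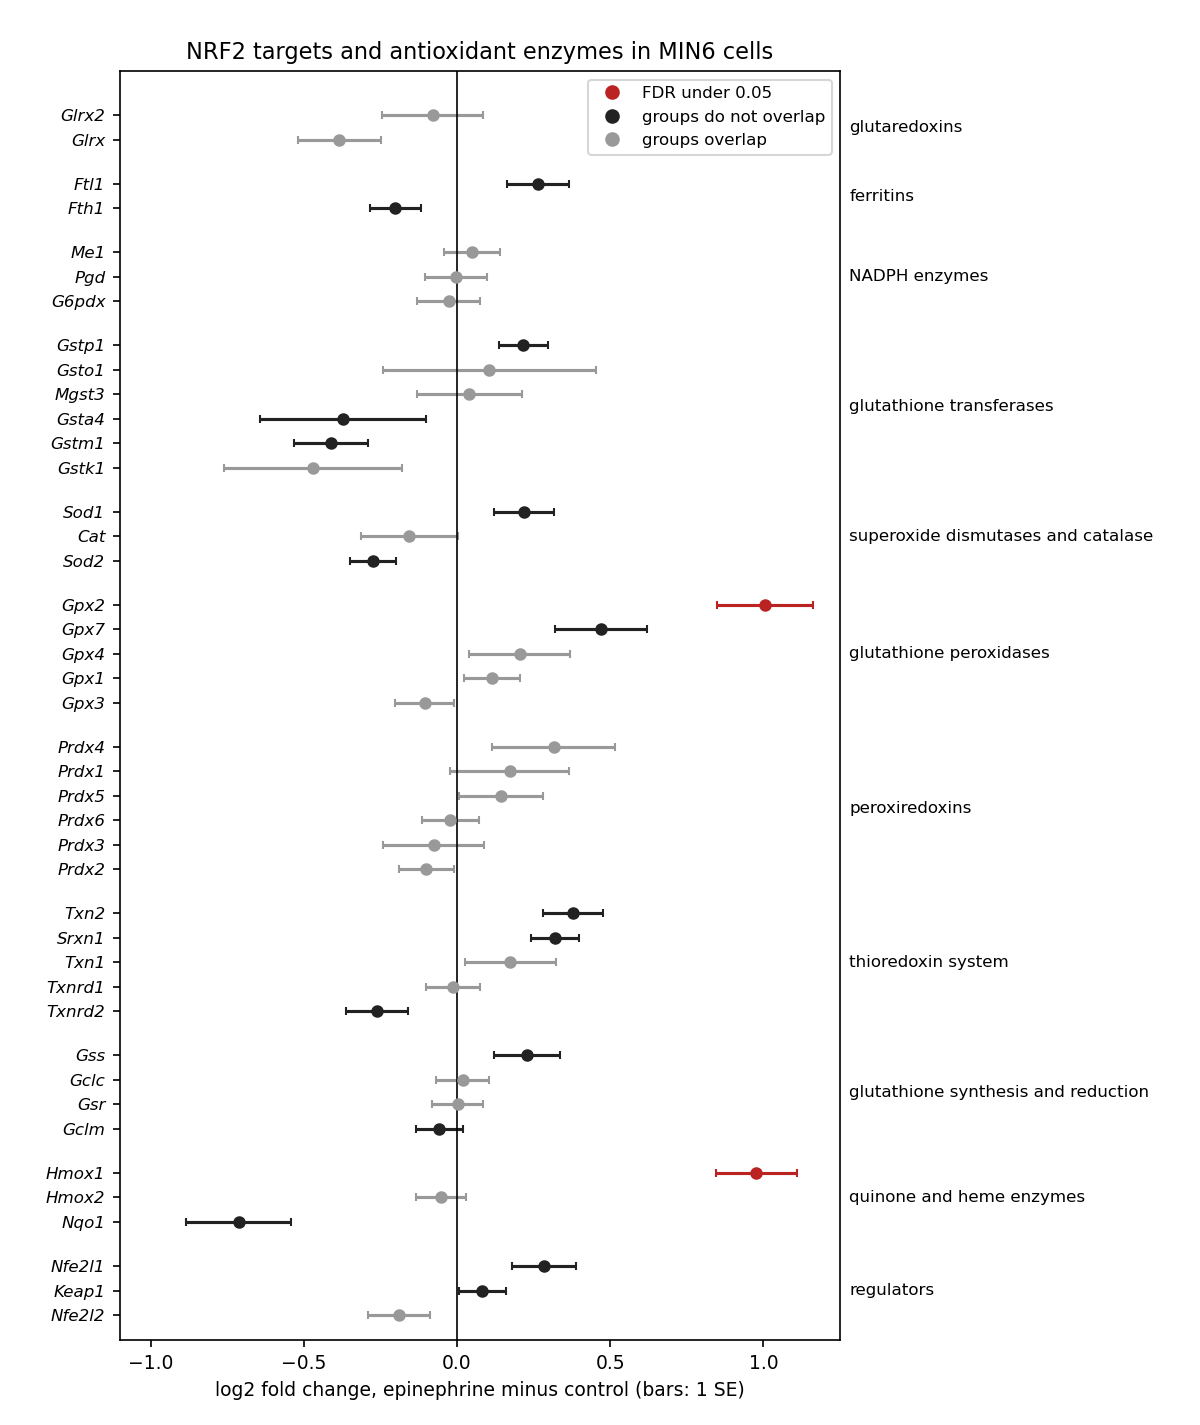
The log2 fold change of each of the 42 tested members (x axis, epinephrine minus control, bars 1 standard error) is drawn by family (y axis), with called members in red, members whose groups do not overlap in black and the rest in grey. Hmox1 and Gpx2 stand near 1 at the right, Nqo1 stands lowest at -0.71, and within most families members lie on both sides of 0.

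Among the regulators, the transcript of NRF2 itself was not called. Nfe2l2 (ENSMUSG00000015839, chr2:75675513-75704641, minus strand, GRCm38) measured 50.8, 46.5 and 43.1 CPM in the controls and 38.4, 39.6 and 45.02 CPM after epinephrine. The groups overlapped, since epinephrine sample 3 lay above control 3, and the log2FC was -0.19 (SE 0.10, FDR = 0.389). Nfe2l1 (chr11:96817414-96829968, minus strand), which encodes the related factor NRF1 known for its control of proteasome genes, measured 249, 200.4 and 198 CPM in the controls and 267, 257 and 264 CPM after epinephrine. All epinephrine samples were above all controls, with control 1 the nearest, and the log2FC of 0.28 (SE 0.11) was not called (FDR = 0.215). Without control 1 it was 0.40 with an FDR of 7.97e-07, and without another library the FDR ran up to 0.534. Keap1 (chr9:21229730-21239361, minus strand), the adaptor that directs NRF2 to degradation, measured 61.2, 59.0 and 60.7 CPM in the controls and 61.9, 63.4 and 66.4 CPM after epinephrine. Its groups did not overlap, but the nearest samples were almost level and the log2FC was 0.08 (SE 0.08, FDR = 0.634). Of Keap1's exonic bases, 10.9% overlap a gene on the opposite strand.

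**Figure D2:**
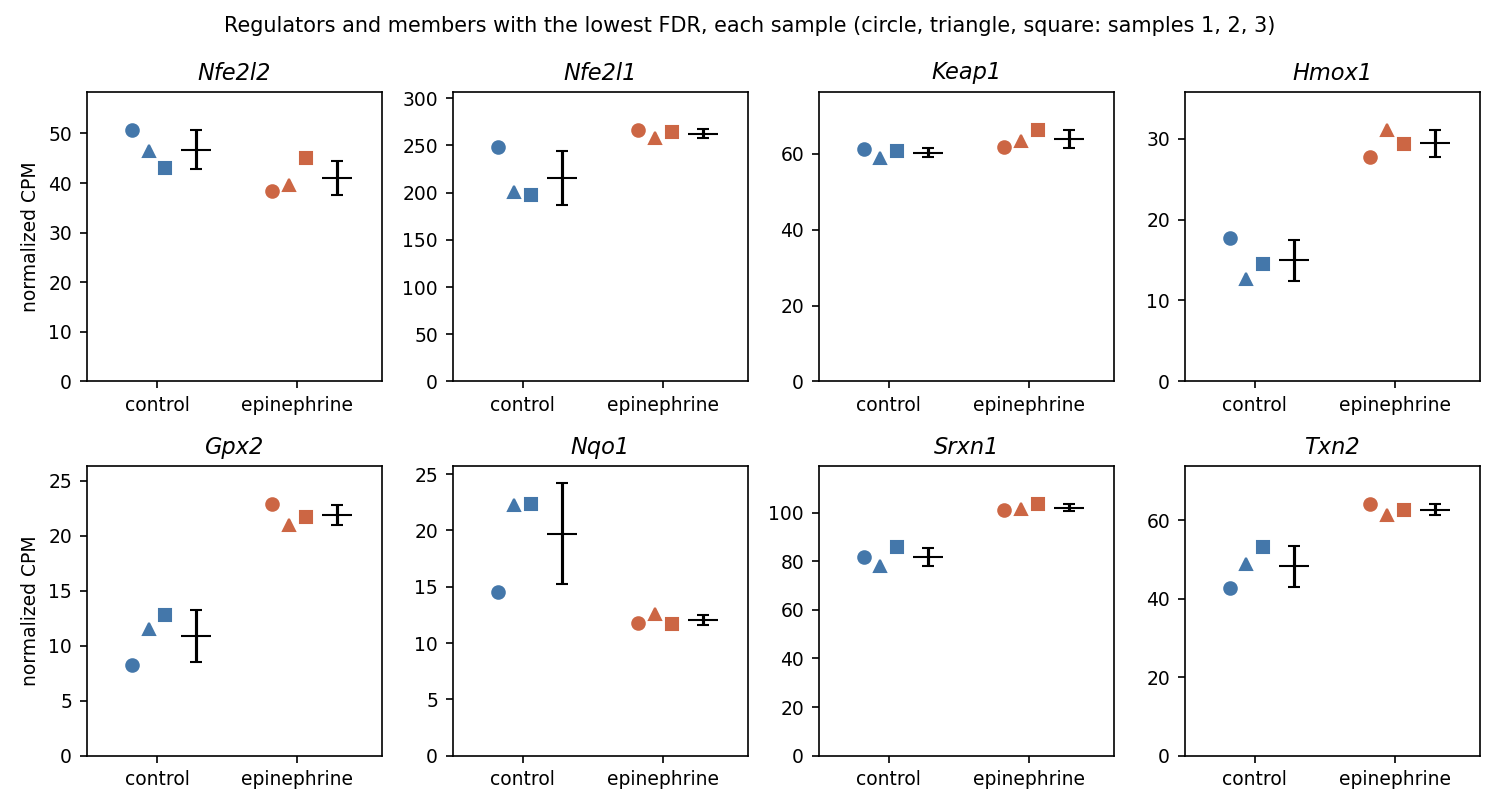
Normalized CPM (y axis, from 0) of the 3 regulators and the 5 members of lowest FDR is shown for each sample, controls in blue and epinephrine in red, with the mean and SD of each group in black (n = 3). In Hmox1 and Gpx2 the epinephrine samples lie at about 2 times the control level, and in Nqo1 control 1 lies near the epinephrine samples while controls 2 and 3 lie far above them.

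Hmox1 (chr8:75093621-75100589, plus strand) encodes heme oxygenase 1, the inducible enzyme that splits heme into biliverdin, iron and carbon monoxide. It measured 17.7, 12.7 and 14.5 CPM in the controls and 27.8, 31.1 and 29.4 CPM after epinephrine and every epinephrine sample lay well above every control. The mean went from 14.96 ± 2.52 CPM to 29.4 ± 1.67 CPM (SD, n = 3), a log2FC of 0.98 (SE 0.13, FDR = 0.00854), and of 1.11 without control 1, its highest control (FDR = 1.09e-09). The call was lost when any of the epinephrine samples was left out, with an FDR of 0.0588, 0.0753 and 0.0563 without sample 1, 2 and 3. Hmox1 is abundant in macrophages, and the 12 leukocyte markers summed to 4.001 to 6.67 CPM in the controls and 8.73 to 11.2 CPM after epinephrine. Of those 12 genes 3 passed the filter, Coro1a, Cd68 and Csf1r, and Cd68 was called higher (log2FC 2.39, FDR = 0.00906). Coro1a was higher in every epinephrine sample without being called (log2FC 0.99, FDR = 0.0593), and Csf1r overlapped (log2FC -0.32, FDR = 0.786). The 9 others measured 0.647 CPM or less in every library, and any part of leukocytes in the Hmox1 change was not tested. Hmox2, the constitutive heme oxygenase, had a log2FC of -0.05 (SE 0.08, FDR = 0.789), and 40.2% of its exonic bases overlap Cdip1 on the other strand. The ratio of Hmox1 to Hmox2 was 0.275, 0.187 and 0.202 in the controls and 0.429, 0.459 and 0.456 after epinephrine.

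Nqo1 (chr8:107388225-107403206, minus strand), the NAD(P)H quinone reductase that is among the best known NRF2 targets, lay in the opposite direction to Hmox1. It measured 14.5, 22.2 and 22.3 CPM in the controls and 11.8, 12.6 and 11.7 CPM after epinephrine. The groups did not overlap, yet control 1 was closer to the epinephrine samples than to the other controls. The log2FC of -0.71 (SE 0.17) was the lowest among the members and had an FDR of 0.0749. Without control 1 it was -0.89 (FDR = 5.93e-08), and on all 6 samples DESeq2's Wald test gave an adjusted p of 0.00973 and edgeR's exact test 0.00406. Leaving out any other library gave an FDR of 0.168 to 0.315.

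Glutathione synthesis begins with the glutamate-cysteine ligase, whose catalytic and modifier subunits are encoded by Gclc and Gclm, and ends with glutathione synthetase, encoded by Gss. Neither subunit of the ligase was called. Gclc measured 47.3 to 49.7 CPM in the controls and 46.9 to 53.2 CPM after epinephrine, with a log2FC of 0.02 (SE 0.09, FDR = 0.938). Gclm measured 139, 132 and 129 CPM in the controls and 129, 128 and 128 CPM after epinephrine, which is a narrow separation with a log2FC of -0.06 (SE 0.08, FDR = 0.751, and -0.03 without control 1). Gss measured 8.998, 9.66 and 9.76 CPM in the controls and 11.3, 10.7 and 11.3 CPM after epinephrine. All its epinephrine samples were above all controls, with a log2FC of 0.23 (SE 0.11, FDR = 0.322), and 18.6% of its exonic bases overlap genes on the other strand. Gsr, the reductase that restores reduced glutathione from its disulfide, had overlapping groups and a log2FC of 0.00 (SE 0.08, FDR = 0.994).

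In the thioredoxin system 3 of the 5 members had groups that did not overlap, beside 27.3% of all genes, and none was called by edgeR's quasi-likelihood test. Srxn1 (chr2:152105516-152111376, plus strand) encodes sulfiredoxin, which returns over-oxidized peroxiredoxins to their active form. It measured 81.6, 78.1 and 85.7 CPM in the controls and 101, 101 and 104 CPM after epinephrine, a step larger than the spread within either group. The log2FC was 0.32 (SE 0.08, FDR = 0.0798), and without control 1 it was 0.32 as well with an FDR of 0.000172. Leaving out another library gave an FDR of up to 0.345. On all 6 samples Srxn1 was called by DESeq2 (adjusted p = 0.0105) and by edgeR's exact test (0.0344). Txn2 (chr15:77915047-77929006, minus strand) and Txnrd2 encode the thioredoxin and the thioredoxin reductase of mitochondria, and they lay on opposite sides of their controls. Txn2 measured 42.7, 48.9 and 53.2 CPM in the controls and 64.2, 61.2 and 62.7 CPM after epinephrine (log2FC 0.38, SE 0.10, FDR = 0.0935). Txnrd2 measured 34.3, 41.3 and 41.5 CPM in the controls and 33.4, 31.3 and 33.0 CPM after epinephrine (log2FC -0.26, SE 0.10, FDR = 0.235), with control 1 just above the highest epinephrine sample. Txn2 was called on all 6 samples by DESeq2 (adjusted p = 0.0301) and by the exact test (0.0264). Without control 1 both were called, Txn2 at 0.30 (FDR = 0.00100) and Txnrd2 at -0.35 (FDR = 0.000724). With another library left out, the FDR ran up to 0.369 for Txn2 and 0.553 for Txnrd2. The ratio of Txn2 to Txnrd2 was 1.24, 1.19 and 1.282 in the controls and 1.92, 1.96 and 1.90 after epinephrine. The cytosolic pair showed no such separation, with a log2FC of 0.17 (SE 0.15, FDR = 0.602) for thioredoxin, Txn1, and of -0.01 (SE 0.09, FDR = 0.952) for its reductase, Txnrd1. In Txn1 control 1, at 53.1 CPM, lay far below the 5 other libraries at 75.0 to 82.7 CPM, and without it the log2FC was 0.01.

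The peroxiredoxins are the thiol peroxidases that take up most hydrogen peroxide in the cytosol, mitochondria and endoplasmic reticulum. In none of the 6 did the groups separate, beside 27.3% of all genes, and 6 genes are too few to set apart from that share. Their log2FC values ran from -0.10 to 0.32 with a lowest FDR of 0.467. Prdx4, the member of the endoplasmic reticulum, measured 143, 240.2 and 267 CPM in the controls and 271, 264 and 274 CPM after epinephrine (log2FC 0.32, SE 0.20, FDR = 0.467, and 0.09 without control 1). Prdx1, a cytosolic member, measured 158, 264 and 284 CPM in the controls and 275, 264 and 257 CPM after epinephrine (log2FC 0.17, SE 0.19, FDR = 0.701, and -0.05 without control 1). In both genes control 1 was far below all other libraries, and controls 2 and 3 lay close to the epinephrine samples. Mitochondrial Prdx3 had the same low control 1, at 61.0 CPM against 89.7 and 99.2 CPM in controls 2 and 3 and 75.3 to 84.9 CPM after epinephrine. Its log2FC was -0.08 with all samples (FDR = 0.851) and -0.26 without control 1 (FDR = 0.00364). Prdx2 was also called without control 1, at -0.17 (FDR = 0.0264), against -0.10 (FDR = 0.622) with all samples. Prdx5 and Prdx6 had log2FC values of 0.14 (-0.01 without control 1) and -0.02.

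Glutathione peroxidases reduce peroxides with glutathione as the electron donor, and 5 of the 6 measured here were tested. Gpx2 (chr12:76792333-76795554, minus strand), a selenoprotein first known from the gut epithelium and an NRF2 target, measured 8.29, 11.5 and 12.8 CPM in the controls and 22.9, 21.0 and 21.8 CPM after epinephrine. Every epinephrine sample was well above the highest control. The mean went from 10.9 ± 2.34 CPM to 21.9 ± 0.947 CPM (SD, n = 3), a log2FC of 1.01 (SE 0.16, FDR = 0.0139). Without control 1 it was 0.85 (FDR = 2.95e-07). The call was lost without control 2 (FDR = 0.0594) and without epinephrine sample 1, 2 or 3 (FDR = 0.106, 0.0848 and 0.0817). Of its 50-base windows, 5.97% also occur in a pseudogene, Gpx2-ps1, so a small part of its reads cannot be told apart from that copy. Gpx7, a peroxidase of the endoplasmic reticulum that lacks selenium, measured 9.84, 12.3 and 13.8 CPM in the controls and 14.7, 18.6 and 16.5 CPM after epinephrine. Its epinephrine samples were all above its controls, with a log2FC of 0.47 (SE 0.15, FDR = 0.163), and it was called at 0.35 without control 1 (FDR = 0.0235). The widespread cytosolic form, Gpx1, had a log2FC of 0.11 (FDR = 0.578, and 0.06 without control 1), the lipid hydroperoxide reductase Gpx4 one of 0.21 (FDR = 0.573, and 0.02 without control 1) and the secreted Gpx3 one of -0.11 (FDR = 0.626), all with overlapping groups. Of the 50-base windows of Gpx4, 34.7% are shared, mainly with its pseudogene Gpx4-ps2, so its level is uncertain to that extent. Gpx8 was not tested, with 3, 0 and 0 counts in the controls and 3, 2 and 0 after epinephrine, at or under the limit for detection.

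Antioxidant response elements were looked for in the RefSeq promoter windows of the members (GRCm38.p6, 250 bases before to 50 after each gene's start), of which 39 members had at least 1. No window was listed for Hmox1, Gclc, Gsr, Prdx6, Sod3 and Gsta4. The letters TGACNNNGC on either strand were found in 10 of these 39 members, a share of 25.6% beside 13.99% of the 27025 genes with a window. Some genes have several windows, and by window the share was 10 of 59 (16.9%) beside 12.4% of 32851. The looser TGANNNNGC, which includes the former, was found in 17 of the 39, a share of 43.6% beside 45.05% of genes. The 10 members with the strict letters are shown because their own window holds the stricter letters, each with 6 bases on both sides, read along the strand that holds the match, capitals marking the 9 bases matched.

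G6pdx at chrX:74428929-74428937 on the plus strand: gtgcttTGACTGAGCtgaccc
Gclm at chr3:122245423-122245431 on the minus strand: gagagtTGACGGTGCgcccgg
Me1 at chr9:86695912-86695920 on the minus strand: ccgccgTGACTCAGCgcttct
Mgst1 at chr6:138140471-138140479 on the minus strand: gcctccTGACCGTGCcaagcc
Nfe2l2 at chr2:75704895-75704903 on the minus strand: cccaccTGACTCCGCcatgcc
Pgd at chr4:149166071-149166079 on the minus strand: cagagcTGACATTGCactgat
Prdx1 at chr4:116685466-116685474 on the minus strand: gggggaTGACTCAGCgctttc
Sod1 at chr16:90220706-90220714 on the minus strand: tgagtcTGACCACGCccacct
Srxn1 at chr2:152105552-152105560 on the minus strand: tcactcTGACCTAGCtgccca
Txnrd1 at chr10:82859114-82859122 on the minus strand: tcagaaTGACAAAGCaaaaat

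Of these 10, 9 were tested, 4 above and 5 below their control level with none called by the quasi-likelihood test, while DESeq2 called Srxn1 and Mgst1 and the exact test Srxn1. The 28 tested members with a window but no strict match had 15 above, 13 below and 1 called by the quasi-likelihood test. That test called 2.63% of all genes, and counts this small do not set either group of members apart from that share. Me1 and Prdx1 carry the same 9 bases. The windows of Gpx2, the called member with an entry, of Srxn1, which had the most matches, and of Nqo1, the member with the lowest fold change, are given whole, in the direction of the gene, with matches to the looser letters in capitals.

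Gpx2, chr12:76795505-76795804, minus strand: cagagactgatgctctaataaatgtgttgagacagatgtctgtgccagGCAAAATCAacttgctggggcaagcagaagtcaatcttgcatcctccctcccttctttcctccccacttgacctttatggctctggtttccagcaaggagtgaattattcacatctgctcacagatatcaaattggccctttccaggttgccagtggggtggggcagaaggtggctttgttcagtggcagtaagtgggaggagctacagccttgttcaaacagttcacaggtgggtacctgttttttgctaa
Srxn1, chr2:152105274-152105573, plus strand: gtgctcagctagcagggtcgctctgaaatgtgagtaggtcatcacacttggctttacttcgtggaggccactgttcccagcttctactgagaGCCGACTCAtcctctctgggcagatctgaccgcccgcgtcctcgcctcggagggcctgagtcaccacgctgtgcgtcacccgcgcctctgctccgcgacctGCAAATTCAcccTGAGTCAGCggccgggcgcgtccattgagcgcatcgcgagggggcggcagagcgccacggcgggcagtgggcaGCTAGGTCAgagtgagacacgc
Nqo1, chr8:107403156-107403455, minus strand: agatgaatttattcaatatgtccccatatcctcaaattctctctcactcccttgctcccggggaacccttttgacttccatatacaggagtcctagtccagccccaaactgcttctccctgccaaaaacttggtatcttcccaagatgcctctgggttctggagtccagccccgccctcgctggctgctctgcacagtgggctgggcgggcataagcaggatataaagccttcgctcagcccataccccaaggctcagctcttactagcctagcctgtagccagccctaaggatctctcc

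The Gpx2 window holds 1 loose match, starting 202 bases before the start of the gene on the strand opposite to it. The Srxn1 window holds 4, at 158, 57 and 45 bases before the start and 29 after it, the last of which also meets the strict letters. The Nqo1 window holds none, which says only that these letters are absent from these 300 bases. The letters TGATGNAA, a form of the element bound by C/EBP-ATF pairs, were in no window of the 39 members, beside 4.51% of the 27025 genes. At that share, 39 members are too few for this absence to set them apart.

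Superoxide dismutases turn superoxide into hydrogen peroxide, and catalase breaks that down in peroxisomes. Cytosolic Sod1 measured 114, 136 and 142 CPM in the controls and 150.04, 152 and 154 CPM after epinephrine. Mitochondrial Sod2 measured 137, 134 and 128 CPM in the controls and 111, 109.6 and 109.9 CPM after epinephrine. The groups did not overlap in either gene, and the directions were opposite, with a log2FC of 0.22 (SE 0.10, FDR = 0.306) for Sod1 and -0.27 (SE 0.08, FDR = 0.107) for Sod2. Without control 1 the log2FC of Sod1 was 0.13. Sod2 was called without control 1, at -0.25 (FDR = 0.000771), and by DESeq2 on all samples (adjusted p = 0.0148). Its FDR ran up to 0.405 without another library, and 21.0% of its 50-base windows occur elsewhere in the transcriptome. The ratio of Sod1 to Sod2 was 0.834, 1.01 and 1.10 in the controls and 1.35, 1.39 and 1.40 after epinephrine. Cat was low in every library, at 4.92 to 5.89 CPM in the controls and 4.30 to 5.52 CPM after epinephrine (log2FC -0.16, SE 0.16, FDR = 0.662). With 1 library left out, the log2FC of Cat ran from -0.26 to -0.08. The extracellular Sod3 was not tested, with 1 to 6 counts in the controls and 2 to 7 after epinephrine.

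Glutathione transferases couple glutathione to electrophiles, and the 6 tested members had log2FC values from -0.47 to 0.22. Gstm1, a mu-class enzyme, measured 184, 134 and 149 CPM in the controls and 115, 117 and 119.7 CPM after epinephrine. All controls were above all epinephrine samples, with control 1 the highest, and the log2FC was -0.41 (SE 0.12, FDR = 0.125). It was called at -0.27 without control 1 (FDR = 0.000664), and on all 6 samples by DESeq2 (adjusted p = 0.0474) and by edgeR's exact test (0.0464). For Gstm1, 18.9% of its 50-base windows are shared, mainly with the pseudogene Gstm2-ps1 and with Gstm3. Gstp1, the pi-class enzyme, lay the other way, at 147, 149 and 161 CPM in the controls and 172, 177 and 181 CPM after epinephrine. Its log2FC was 0.22 (SE 0.08, FDR = 0.216), and 0.19 without control 1 (FDR = 0.0108), and 33.7% of its windows are shared, mainly with Gstp2, so the counts of the pair are uncertain. Gsta4, which acts on the lipid peroxidation product hydroxynonenal, was also lower in all epinephrine samples, at 1.23, 1.09 and 1.13 CPM in the controls and 0.712, 0.953 and 0.992 CPM after epinephrine. This rests on 12 to 19 counts a library (log2FC -0.37, SE 0.27, FDR = 0.527). Gstk1, Gsto1 and Mgst3 had overlapping groups. Gstk1, at the lower end of the range, had 21 to 53 counts a library. Its log2FC ran from -0.62 to -0.15 when 1 library was left out. Mgst3 went from 0.04 to -0.13 without control 1. Mgst1, the microsomal transferase, did not pass the filter, with 4, 5 and 25 counts in controls 1, 2 and 3 and 0 in every epinephrine sample. The 35 hepatocyte markers, summing to 364 CPM in control 3, were highest in the same library, and the part of that signal in Mgst1 was not tested. DESeq2, with its own filter, gave Mgst1 an adjusted p of 0.00625, and edgeR without a filter gave 0.0828.

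The enzymes that supply NADPH for these reductions lay close to their control levels. G6pdx and Pgd of the pentose phosphate pathway and malic enzyme, Me1, had log2FC values of -0.03, -0.00 and 0.05, with SE of 0.10, 0.10 and 0.09 and overlapping groups, and of 0.06, 0.03 and 0.12 without control 1. Ferritin stores iron and so keeps it from reacting with peroxide, and its heavy and light subunits lay on opposite sides. Fth1, the heavy chain with ferroxidase activity, measured 446, 469.7 and 497 CPM in the controls and 419, 395 and 415 CPM after epinephrine (log2FC -0.20, SE 0.08, FDR = 0.261). Ftl1, the light chain, measured 887, 986 and 1117 CPM in the controls and 1203, 1158 and 1230.1 CPM after epinephrine (log2FC 0.26, SE 0.10, FDR = 0.230). Neither was called with all samples, while both were without control 1, Fth1 at -0.24 (FDR = 0.000687) and Ftl1 at 0.19 (FDR = 0.0107). The ratio of light to heavy chain was 1.99, 2.10 and 2.25 in the controls and 2.87, 2.94 and 2.96 after epinephrine. Of the 50-base windows of Ftl1, 50.9% are shared with pseudogenes and related copies, so its level is uncertain to that extent. Glutaredoxin 1, Glrx, measured 187, 261 and 268 CPM in the controls and 177, 189 and 183 CPM after epinephrine. Its groups overlapped through control 1 alone, and the log2FC was -0.38 (SE 0.14, FDR = 0.197) with all samples and -0.53 (FDR = 6.58e-09) without that library. Without another library the FDR of Glrx ran up to 0.515. Mitochondrial Glrx2 had a log2FC of -0.08 (SE 0.17, FDR = 0.845), and of -0.24 without control 1 (FDR = 0.101). The ratios between members given here and above were chosen after the values were seen and carry no test.

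Grouped by compartment, the 5 mitochondrial members had 1 above and 4 below their control level, with a median log2FC of -0.08 that was -0.25 without control 1 and -0.03 without control 2, with 2 above and 3 below. The 3 tested members of the endoplasmic reticulum lumen or the secreted fraction, Prdx4, Gpx7 and Gpx3, had a median of 0.32, with 2 above and 1 below, and of 0.09 without control 1 and 0.49 without control 3. The 19 members commonly listed as NRF2 targets, 18 of them tested, had 10 above and 8 below and the same median of 0.01 as the 24 tested others, of which 12 were above and 12 below. Both called genes are among those 18 targets, beside 2.02% of all genes called higher. In 5 of the 18 all epinephrine samples were above all controls, Srxn1 among them. In 5 they were below, Nqo1, Gstm1 and Fth1 among them. Together these were 55.6% of the 18, beside 27.3% of all genes. By family the medians ran from -0.23 in the glutaredoxins to 0.21 in the glutathione peroxidases. These 2 medians were -0.39 and 0.06 without control 1. The glutaredoxins were at -0.12 without control 2, and the peroxidases at 0.35 without control 3. The families at the ends changed with the library left out. The regulators were highest without control 1 (0.09), and the thioredoxin system without epinephrine sample 3 (0.21). The glutathione transferases were lowest without control 2 (-0.29), and the superoxide dismutases and catalase without epinephrine sample 1 (-0.26). Members on both sides of 0 occurred in 10 of the 11 groups, the glutaredoxins being the exception. The 6 selenoproteins, Gpx1, Gpx2, Gpx3, Gpx4, Txnrd1 and Txnrd2, were evenly split, 3 above and 3 below.

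**Figure D3:**
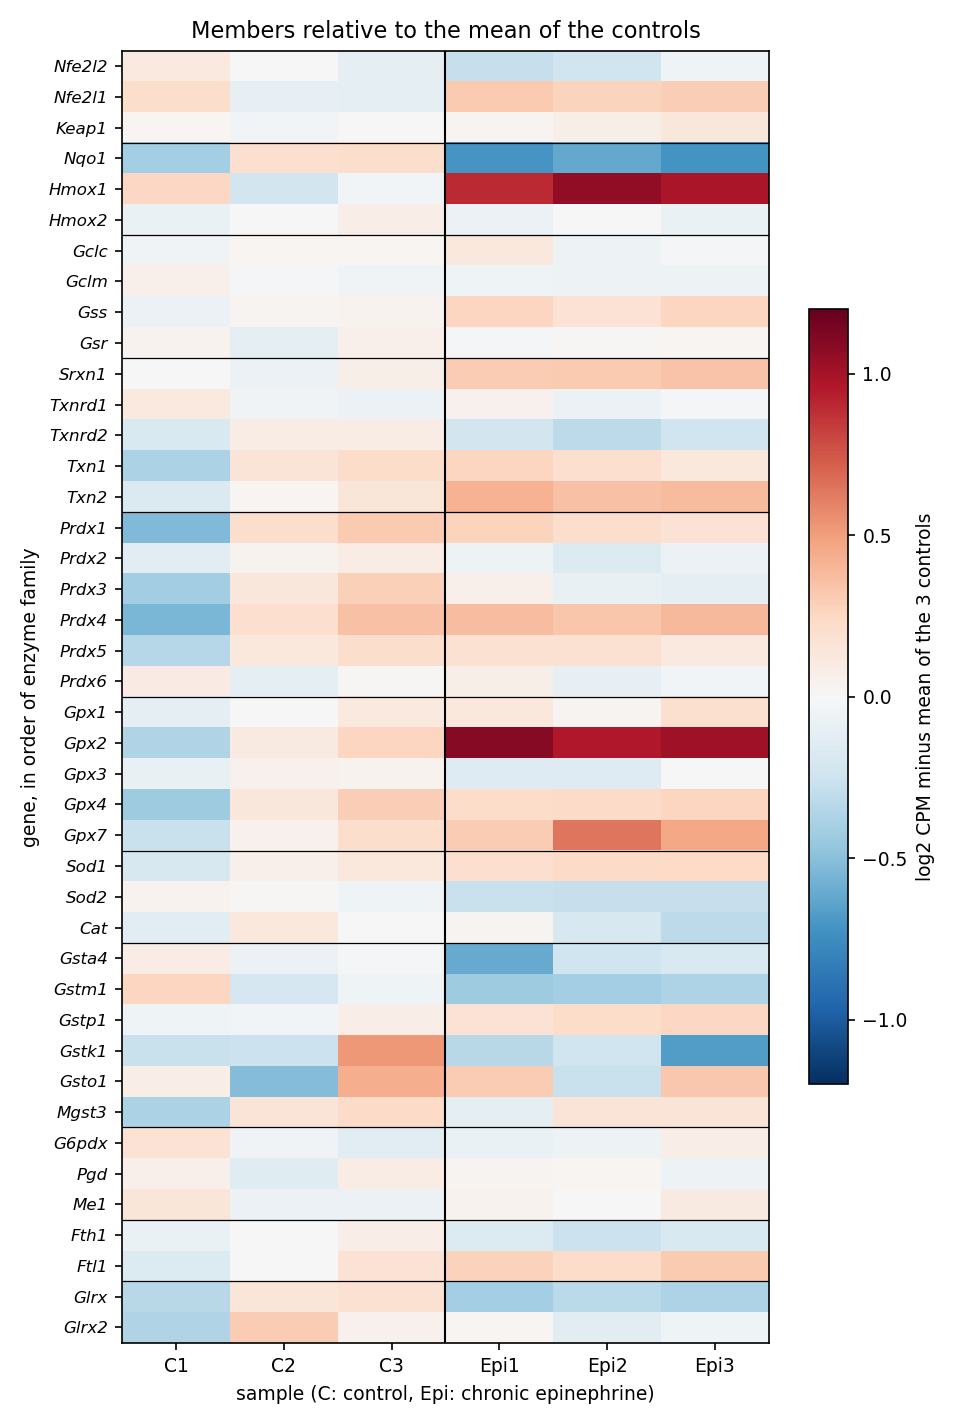
Each cell gives the log2 CPM of a tested member (y axis, in family order) in 1 sample (x axis, C1 to C3 controls, Epi1 to Epi3 epinephrine) minus the mean of the 3 controls, from blue (lower) to red (higher). Hmox1 and Gpx2 are red in all epinephrine columns and Nqo1 blue, and the C1 column is blue for most peroxiredoxins, with a family median of -0.38.

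Levels between genes were compared per transcript length with the deposited FPKM values, as the mean of the controls. The ferritin chains were far above the rest, at 1037 ± 104 FPKM for Ftl1 and 543 ± 21.6 FPKM for Fth1 (SD, n = 3). Below them came Prdx4 at 219.9 ± 63.2, Sod1 at 205 ± 19.6, Prdx1 at 200.3 ± 56.5, Gstp1 at 187 ± 7.31, Gpx4 at 182.5 ± 42.3, Glrx at 179 ± 30.8, Gstm1 at 123 ± 22.6 and Prdx2 at 105 ± 6.41 FPKM. These 10 members were at 100 FPKM or more, and from Prdx4 to Prdx2 each overlapped its neighbour in the order. Along the whole order 34 of the 44 neighbouring pairs had overlapping control ranges, so most adjacent ranks are not separated. Catalase was at 2.08 ± 0.163 FPKM, and 4 members were under 1 FPKM, namely Gsto1, Mgst1, Gpx8 and Sod3. Both called members came from the lower part of the order, with control levels of 9.63 ± 1.78 FPKM for Hmox1 and 10.3 ± 2.05 FPKM for Gpx2 and epinephrine levels of 18.6 ± 0.960 and 20.3 ± 0.979 FPKM. Nqo1 went from 12.8 ± 2.73 to 7.66 ± 0.261 FPKM.

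**Figure D4:**
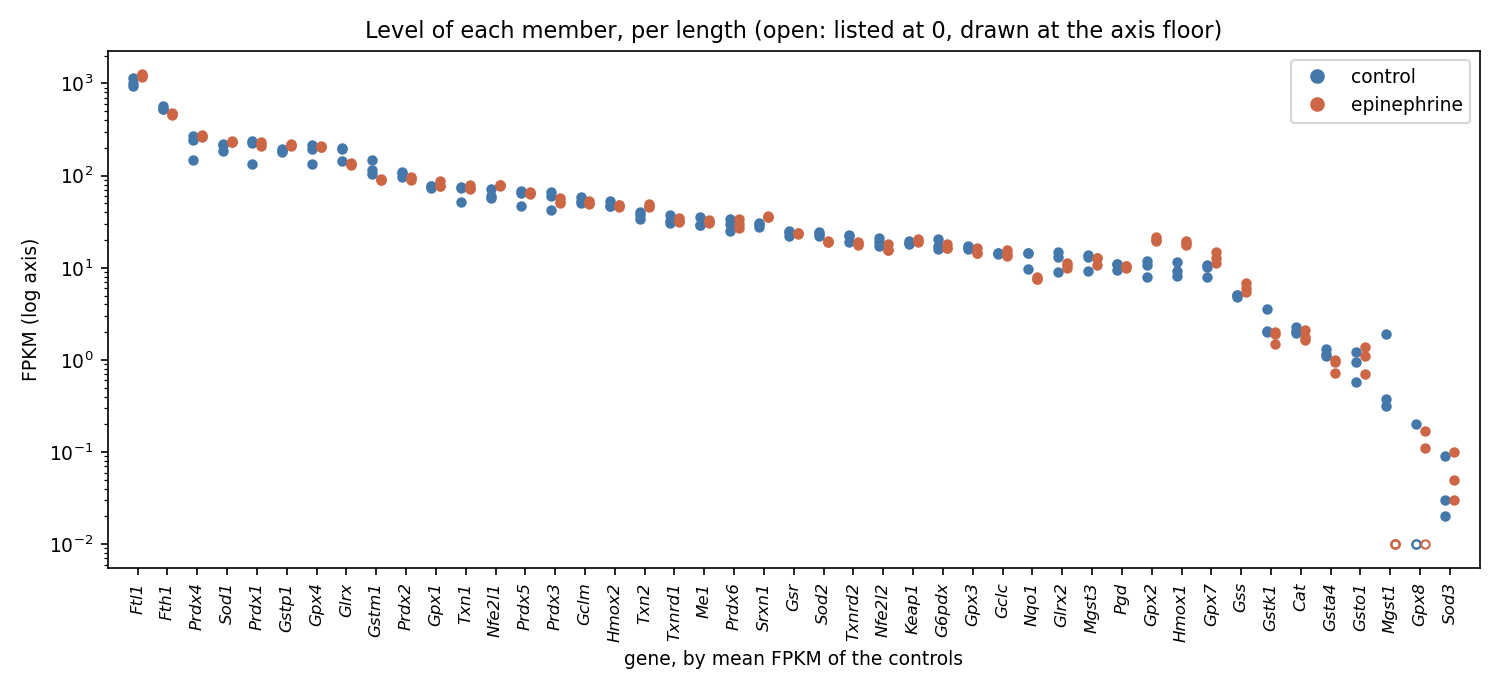
FPKM of each member in each sample (y axis, log scale) is drawn in the order of the control means (x axis), controls in blue, epinephrine in red, and values of 0 as open points at the axis floor. The ferritin chains lead the order, Hmox1 and Gpx2 lie near 10 FPKM in the controls, and Mgst1, Gpx8 and Sod3 end it.

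Much of the spread among the controls came from control 1, and it was not spread evenly over the members. Control 1 was below the mean of controls 2 and 3 in 27 of the 42 tested members (64.3% beside 51.3% of 12398 genes, with median differences of -0.13 and -0.01), by up to -0.83 (log2 CPM) in Prdx4 and -0.80 in Prdx1, followed by Gpx4 at -0.65, Prdx3 at -0.63 and Nqo1 at -0.62. In Gstm1 and Hmox1 it was above them by 0.38, and in Nfe2l1 by 0.32. The difference went with the transcript length implied by the deposited counts and FPKM. Among the 21 members under 1409 bases, 18 were lower in control 1, with a median difference of -0.41, and among the 21 longer ones 9 were lower, with a median of 0.06. Across the 42 members the Spearman correlation of this difference with length was 0.535, and across 12398 genes it was 0.482, all read from the same 3 libraries. RNA quality values were not among the data used here, and their part in this pattern was not tested. Leaving control 1 out raised the members called from 2 to 16, while the share of all genes called went from 2.63% to 21.6%. Of these 16, Gpx2, Gpx7, Gstp1, Hmox1, Nfe2l1, Srxn1, Txn2 and Ftl1 were higher, and Fth1, Glrx, Gstm1, Nqo1, Prdx2, Prdx3, Sod2 and Txnrd2 were lower. With 2 controls left, that fit rests on fewer samples and is given as a measure of how much 1 library decides.

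**Figure D5:**
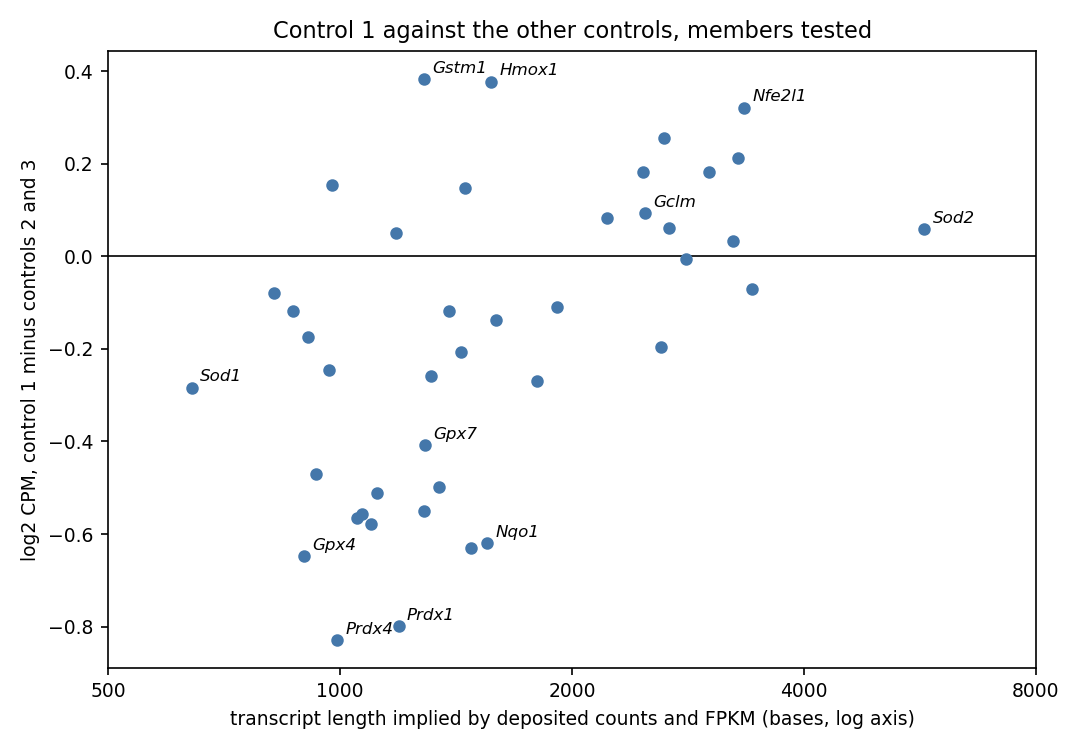
For each tested member, the log2 CPM of control 1 minus the mean of controls 2 and 3 (y axis) is plotted against the transcript length implied by the deposited values (x axis, bases, log scale). Short transcripts such as Prdx4 and Prdx1 lie lowest, at -0.83 and -0.80, and the 21 longer transcripts have a median of 0.06.

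Other genes of the pathway were read from 9 lists, and 13 of their 127 tested genes were called (10.2% beside 2.63% of all genes), 10 higher and 3 lower, on lists chosen with results of these data known. Among 28 other NRF2 targets, 25 tested, 3 rose, beside 2.02% of all genes. The cystine importer Slc7a11, which brings in the building block for glutathione, went from 1.48 ± 0.0938 to 8.01 ± 0.663 CPM (log2FC 2.44, FDR = 0.000519), the quercetinase-like nuclear protein Pir from 9.29 ± 1.22 to 18.2 ± 0.905 CPM (FDR = 0.00674) and the glycine transporter Slc6a9 from 5.92 ± 1.56 to 12.1 ± 1.55 CPM (FDR = 0.0298). Genes on the opposite strand overlap 38.6% of the exonic bases of Slc6a9. The median of that list of targets was 0.01, with 14 of 25 above their control level. Of 14 tested genes of glutathione turnover, Chac1, an enzyme that degrades glutathione, rose from 17.5 ± 1.6 to 39.4 ± 1.13 CPM (FDR = 0.00148). Among 16 tested other sources of NADPH, the mitochondrial folate enzymes Aldh1l2 and Mthfd2 rose, Aldh1l2 from 58.6 ± 1.86 to 162 ± 3.39 CPM (FDR = 0.000221) and Mthfd2 from 75.0 ± 3.65 to 122 ± 5.4 CPM (FDR = 0.00523). G6pdx, Pgd and Me1, by comparison, had log2FC values of -0.03 to 0.05.

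Of 13 tested genes that bind metals or move iron, the metallothioneins Mt1, Mt2 and Mt3 rose (FDR = 0.0181, 0.0153 and 0.00853), Mt2 from 809 ± 114 to 1361 ± 101 CPM. A gene on the opposite strand overlaps 73.5% of Mt2's exonic bases. The iron exporter Slc40a1 fell from 122 ± 2.60 to 83.8 ± 1.13 CPM (log2FC -0.55, FDR = 0.00906). Of the 7 tested genes whose enzymes produce oxidants, Ero1l, the oxidase of disulfide formation in the endoplasmic reticulum, rose from 379 ± 12 to 633 ± 4.63 CPM (FDR = 0.00289), and Maob, the mitochondrial monoamine oxidase, fell from 286 ± 19.5 to 196 ± 0.338 CPM (FDR = 0.0136). Among 17 other thiol oxidoreductases Sesn1, a sestrin induced by p53, fell from 62.8 ± 3.74 to 44.7 ± 3.59 CPM (FDR = 0.0344). The 3 lower calls were lost when any epinephrine sample was left out, with an FDR of 0.0866 to 0.0902 for Slc40a1, 0.110 to 0.134 for Maob and 0.108 to 0.211 for Sesn1. Maob and Sesn1 were also lost without control 2, without control 3 and with the replicate number as a block (FDR = 0.0543 and 0.0767). Among the higher calls, Slc6a9 was lost in every fit that left out a library other than control 1 (FDR up to 0.189) and with limma on FPKM (FDR = 0.214 and 0.226). Mt1 and Mt2 were lost without control 2 and without any epinephrine sample (FDR up to 0.134 and 0.110), Mt1 with limma at both pseudocounts (FDR = 0.0629 and 0.0579) and Mt2 at the larger (FDR = 0.0518). Mt3, Mthfd2 and Pir were each lost in 2 of the 6 such fits. Of all 13 calls, those of Slc7a11, Chac1, Aldh1l2 and Ero1l held when each library was left out in turn. None of the 14 tested partners and repressors of NRF2, the 9 other glutathione transferases or the 12 genes of selenoprotein synthesis was called by edgeR's quasi-likelihood test, with 4, 3 and 3 of them at an unadjusted p under 0.05, beside 17.1% of all genes.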

How the data were processed

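Total RNA of MIN6 cells (control, n = 3, chronic epinephrine, n = 3) was sequenced on an Illumina Novaseq6000, and groups were taken from the sample titles. The table deposited by the authors gives expected counts per gene and sample, without normalization between samples, and FPKM, scaled by the authors to transcript length and library total. GRCm38 is the build in the submitters' processing notes, and the aligner, counter and annotation are not given in the sources used here. Expected counts, of which 8.341% were not whole, were rounded, filtered with filterByExpr, normalized by TMM and tested in R 4.3.3 with edgeR 4.0.16 (quasi-likelihood test, group as the only term), with Benjamini-Hochberg adjustment over 12747 genes. The standard error was taken as the fold change on the log2 scale over the square root of F. On simulated counts with known changes the procedure was tested before use. Those counts held no outlying library and no shift with transcript length, so they do not cover what control 1 shows. limma 3.58.1 was run on log2(FPKM + 1) and log2(FPKM + 0.1), and DESeq2 1.42.0, edgeR's exact test, other scalings, other filters, a replicate block and leaving out each library were alternatives. Positions and 50-base windows shared between genes came from GENCODE release M21. The members, families and lists were chosen with earlier results of these data known. All 45 members could be named. Full statistics were kept for called members, the regulators and members whose groups do not overlap. Of the other pathway lists only called genes were named, at most 4 a list, and of the cell-type markers some genes not called were named too. Other members added for context were chosen after their values were seen. Protein sequences and the study's other assays were not analysed here.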

Additional observations from a re-analysis of the deposited data

How the results depend on the processing

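With 3 samples a group and 15017065 counts or more a library, no member with a log2 fold change between -0.71 and 0.47 was called by the quasi-likelihood test (DESeq2 and the exact test called some), and Gsta4 and Gsto1, with 12 counts in their lowest library, are limited by counting error. Hmox1 and Gpx2 kept their direction under every alternative run, and were called under every alternative that kept all 6 samples. The number of members called higher, 2, was 4 with DESeq2's Wald test and 4 with edgeR's exact test, and ran from 0 to 8 when 1 library was left out. The number called lower, 0, was 4 with DESeq2, 2 with the exact test and 1 (Nqo1) without a filter on low counts, and ran from 0 to 8. Both upper ends came without control 1, and no member was called without epinephrine sample 1, 2 or 3. For all genes the 257 calls higher became 444, 530 and 150, and the 78 lower became 285, 304 and 28, with DESeq2, the exact test and the replicate block, and ran from 44 to 1572 and from 1 to 1226 without 1 library. For the other pathway lists the 10 calls higher were 16 with the exact test (5 to 28 without 1 library). The 3 lower were 8 with DESeq2, 8 with the exact test and 1 with the block (0 to 23). The cause of these shifts was not tested.

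The same replicate numbers do not mark shared batches in the labels, and deviations of same-numbered samples correlated at 0.0502, 0.0677 and -0.0488. With the replicate block the members called were still 2, Hmox1 at an FDR of 0.0357 and Gpx2 at 0.0443. The median of the glutathione transferases ran from -0.29 to 0.0022 without 1 library. Members near 0 changed sign. Gclc was -0.0079 by library size and -0.0086 and -0.0093 with limma. Gsr was -0.0057 with DESeq2 size factors, -0.00019 with upper quartile scaling, -0.026 by library size, -0.0052 with DESeq2, -0.023 and -0.023 with limma, -0.0015 without a filter and -0.0014 with at least 10 counts. Prdx6 was 0.042 and 0.043 with limma, and Pgd 1.0e-05 with the block. Without 1 library the ranges were -0.036 to 0.057 (Gclc), -0.057 to 0.033 (Gsr), -0.052 to 0.048 (Txnrd1), -0.048 to 0.33 (Prdx1), -0.26 to 0.067 (Prdx3), -0.0058 to 0.25 (Prdx5), -0.083 to 0.029 (Prdx6), -0.15 to 0.37 (Gsto1), -0.13 to 0.15 (Mgst3), -0.088 to 0.061 (G6pdx), -0.081 to 0.042 (Pgd) and -0.24 to 0.081 (Glrx2).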
